A study of Mus musculus with 70 samples.

Results

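The POMC lineage genes described here are 8 genes chosen by name, *Pomc*, *Crhr1*, *Avpr1b*, *Tbx19*, *Pax7*, *Pcsk1*, *Pcsk2* and *Neurod1*, of 22835 genes in the RNA-seq table of mouse pituitary. No measured value of these data entered the rule that names them, although results of the series were known when they were proposed. Each has 1 transcript in the table, and all 8 exceeded 1 CPM (mapped reads scaled to a common library total) in all 18 libraries, so that all 8 were among the 13145 genes tested. The lowest value of any member was 1.27 CPM, or 35 reads, for *Avpr1b* in 1 hypothyroid wild-type library.

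Pro-opiomelanocortin (POMC) is the precursor made by corticotrophs of the anterior lobe and melanotrophs of the intermediate lobe of the pituitary. The convertase PC1/3 (*Pcsk1*) cuts it to adrenocorticotropic hormone (ACTH), and in melanotrophs PC2 (*Pcsk2*) cuts further towards melanocyte-stimulating hormone. Corticotropin-releasing hormone and vasopressin drive corticotrophs through *Crhr1* and *Avpr1b*, while the T-box factor *Tbx19* (Tpit) defines both POMC lineages, *Pax7* marks melanotrophs, and the E-box factor *Neurod1* acts on *Pomc* in early corticotrophs. Neither convertase nor *Neurod1* is restricted to POMC cells.

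The RNA-seq libraries came from whole pituitaries of adult C57BL/6J males of 2 to 4 months, with 3 glands pooled per library. All animals received methimazole (MMI, 0.05%) and potassium perchlorate (1%) in their drinking water, over 4 or 5 weeks, and the hyperthyroid animals also received T3 (0.5 µg/ml) in the final week. The 4 groups were hypothyroid wild type (4 libraries), hyperthyroid wild type (4), hypothyroid *Thrb*-KO (5) and hyperthyroid *Thrb*-KO (5), so that the controls were hypothyroid rather than untreated. *Thrb*-KO mice lack the T3 receptor TRβ throughout the body, and in bulk tissue fewer cells of a type and less RNA per cell cannot be told apart. TRβ binding was read from ChAP-seq of untreated males, in which a biotin tag on TRβ (*Thrb* HAB, with the ligase BirA expressed from *Rosa26*) captures bound chromatin of pituitary (pools of about 12 glands) or cerebral cortex (2 mice per pool). Control reads came from mice with BirA and without the HAB tag, 3 libraries per tissue, by their titles and the study's methods, although their genotype label repeats that of the tagged mice. T3-regulated ATAC peaks compared hypothyroid with hyperthyroid animals, 4 libraries each, treated with the same agents, doses and times as the RNA-seq groups. Their Sun1-GFP nuclei were marked by a *Thrb* b2Cre driver, which by the study's staining labelled very few ACTH-positive cells.

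Recovered reads per library were 21453548 to 55273749 (median 34673225). Replicates 1 and 2 of each group (8 libraries) stood apart from replicates 3 to 5 (10 libraries), with *Lars2* at 2571 to 3420 CPM in the former and 53.2 to 95.1 CPM in the latter. Both sets hold all 4 groups, and values within each set are given where they differ from the pooled value. Replicate 3 of hyperthyroid wild type stood apart from its group (Pearson r down to 0.915 on log2(CPM + 1)), and leaving it out changed no call on the 8 genes. Transcript counts of *Thrb* itself did not fall in *Thrb*-KO, at 257 ± 27.3, 104 ± 22.8, 271 ± 20.1 and 260 ± 32.0 CPM (SD) in hypothyroid wild type (n = 4), hyperthyroid wild type (n = 4), hypothyroid *Thrb*-KO (n = 5) and hyperthyroid *Thrb*-KO (n = 5). This count over the whole transcript does not say which part of the gene remains, and the genotype was taken from the labels.

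T3 lowered *Pcsk1* in both genotypes, and it was the member called in each T3 response. Calls needed a limma p, adjusted by Benjamini-Hochberg over all genes tested, below 0.05 together with a change of 1.5-fold or more on log2(CPM + 1). In wild type 1 of 8 members was called, beside 9.46% of all genes tested and 5.59% called lower. In *Thrb*-KO 1 of 8 was called, beside 1.01% of all genes. The responses themselves differed between genotypes for *Pcsk1* and *Neurod1*, 2 of 8 members beside 4.26% of all genes. Between genotypes under hypothyroidism *Pcsk1* and *Pcsk2* were lower and *Neurod1* was higher in *Thrb*-KO, 3 of 8 members beside 3.02% of all genes. Under T3 none of the 8 was called between genotypes with limma, edgeR or DESeq2, beside 4.86% of all genes with limma. Of the 8, 5 had an unadjusted p under 0.05 (limma), a limit for which no share of all genes was counted. Without the fold limit 2, 2, 2, 3 and 2 members passed in these 5 comparisons, beside 19.3%, 1.79%, 5.46%, 6.85% and 12.1% of all genes. The T3 response of wild type and the hypothyroid genotype difference share the hypothyroid wild-type libraries, as do the other contrasts that meet in 1 group, so their values are not independent.

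**Figure D1:**
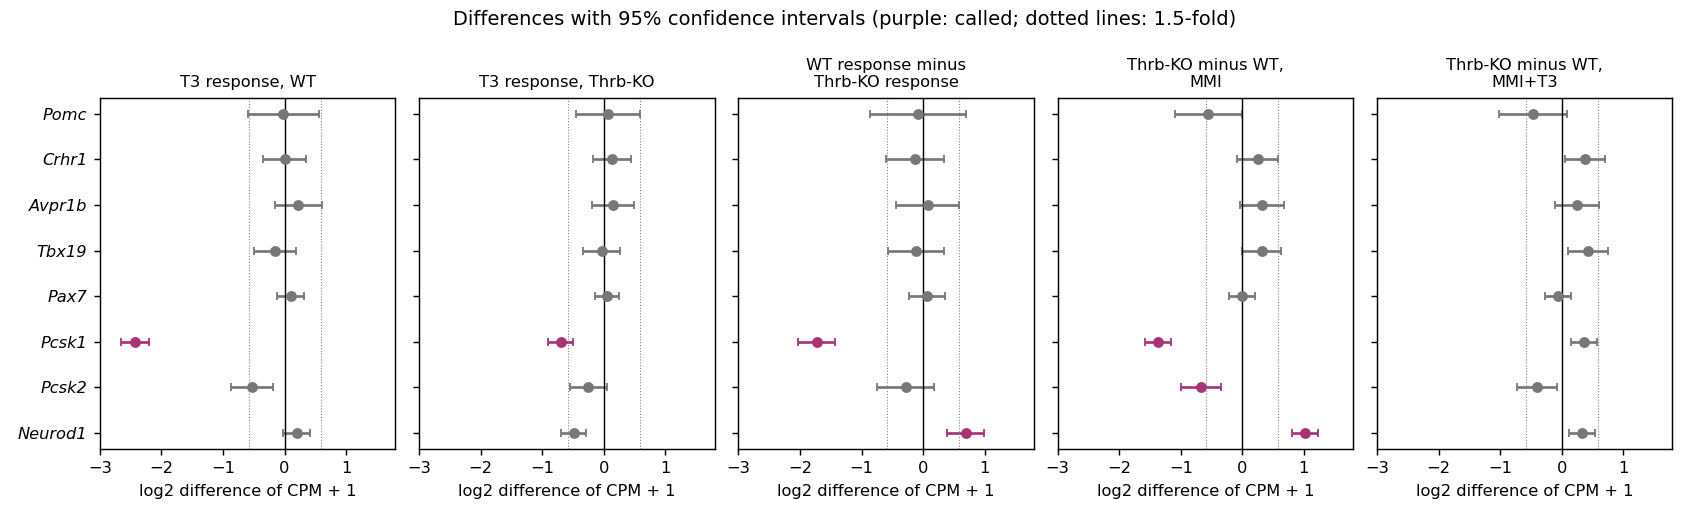
Differences of the 8 genes in 5 comparisons, on the log2 scale of CPM + 1, with 95% confidence intervals from limma. Purple points were called and dotted lines mark 1.5-fold. *Pcsk1* lies far to the left in wild type (-2.43), nearer to 0 in *Thrb*-KO (-0.70), and the *Pomc* intervals are the widest in all 5 panels.

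*Pomc*, the hormone precursor, was not called in any comparison, and its libraries spread 3.45-fold. In hypothyroid wild type it was 4416, 3653, 4838 and 7759 CPM in replicates 1 to 4, and in hyperthyroid wild type 4654, 3300, 8829 and 4252 CPM. In hypothyroid *Thrb*-KO it was 4055, 3381, 2559, 3168 and 3981 CPM, and in hyperthyroid *Thrb*-KO 3333, 3283, 5391, 3183 and 3001 CPM. The groups overlapped, and 1 library in each wild-type group, at 7759 and 8829 CPM, stood above all others.

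The T3 difference of *Pomc* was -0.02 (SE 0.28, 95% interval -0.60 to 0.56) on the log2 scale in wild type, with adjusted p 0.983 (limma). In *Thrb*-KO it was 0.07 (interval -0.45 to 0.59), so that a 1.5-fold fall in wild type and a 1.5-fold rise in *Thrb*-KO lie at the ends of these intervals. *Thrb*-KO levels were lower by mean, 3429 ± 617 against 5167 ± 1797 CPM (SD, n = 5 and 4) in hypothyroid animals, a log2 difference of -0.55 (interval -1.10 to -0.003) with adjusted p 0.269. It was -0.12 in replicates 1 and 2, -0.94 in replicates 3 to 5, and -0.34 without replicate 4 of hypothyroid wild type. Under T3 it was -0.47 (interval -1.01 to 0.08), with -0.24 and -0.72 in the sets. Ordered by mean, the groups ran hyperthyroid wild type (5259 ± 2447), hypothyroid wild type, hyperthyroid *Thrb*-KO (3638 ± 988) and hypothyroid *Thrb*-KO, and all neighbours overlapped.

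The start of *Pomc* is shown because the gene names the lineage. The 250 bases before the RefSeq start (GRCm38.p6, chr12:3954695-3954944, plus strand) are printed with capitals on the motifs found:
Pomc promoter: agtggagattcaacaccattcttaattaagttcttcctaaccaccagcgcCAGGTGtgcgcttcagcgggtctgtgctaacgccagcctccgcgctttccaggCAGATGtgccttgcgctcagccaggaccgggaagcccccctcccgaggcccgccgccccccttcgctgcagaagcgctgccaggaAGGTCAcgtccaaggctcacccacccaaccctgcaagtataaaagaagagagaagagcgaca
Both strands were searched for the E-box CANNTG, the T-box motif TCACACC, the nuclear receptor motif AGGTCA and the cyclic AMP response element TGACGTCA, and no 2 of these matches overlap. *Pomc* holds E-boxes whose first bases lie 200 and 147 bases before the start and an AGGTCA 62 bases before it. Of 27025 RefSeq promoters of this length, 66.04% hold a CANNTG, 13.8% an AGGTCA, 3.31% a TCACACC and 1.62% a TGACGTCA. AGGTCA and TGACGTCA were added to the search after the sequences were seen, so their shares do not weigh these matches. A match in this window is a description of the letters and no evidence of a bound site.

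*Pcsk1*, the convertase that releases ACTH, was the member with the widest range, from 120 to 784 CPM. In hypothyroid wild type it was 598, 664, 784 and 744 CPM in replicates 1 to 4, and in hyperthyroid wild type 129, 132, 120 and 131 CPM. In hypothyroid *Thrb*-KO it was 251, 222, 269, 287 and 323 CPM, and in hyperthyroid *Thrb*-KO 147, 164, 167, 173 and 174 CPM. No pair of groups overlapped, and the order was hypothyroid wild type, hypothyroid *Thrb*-KO, hyperthyroid *Thrb*-KO and hyperthyroid wild type.

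In wild type T3 lowered *Pcsk1* by a log2 change of -2.43 (SE 0.11), a 5.40-fold fall, with adjusted p 1.79e-11 (limma) and all 4 hyperthyroid libraries below all 4 hypothyroid ones, as for 11.7% of genes tested. Within replicates 1 and 2 the change was -2.27 and within replicates 3 and 4 it was -2.60. In *Thrb*-KO the fall was -0.70 (SE 0.10), 1.63-fold, with adjusted p 0.00022 and again no overlap, as for 3.53% of genes (-0.60 in replicates 1 and 2, -0.77 in replicates 3 to 5). The wild-type response minus the *Thrb*-KO response was -1.73 on the log2 scale (interval -2.03 to -1.43, adjusted p 4.99e-07).

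Between genotypes *Pcsk1* was 2.58-fold lower in hypothyroid *Thrb*-KO than in hypothyroid wild type (log2 -1.37, SE 0.10, adjusted p 1.05e-07, limma), without overlap, as for 6.7% of genes tested. Under T3 the sign was opposite, 0.36 higher in *Thrb*-KO (adjusted p 0.0239) with no overlap of the libraries (as for 7.61% of genes), but under the 1.5-fold limit. Markers of thyrotrophs, somatotrophs and lactotrophs moved under T3 as well, and macrophage markers differed between the hypothyroid genotypes. Thyrotroph markers were *Tshb* (the TSH beta subunit) and *Trhr* (the TRH receptor). Their summed CPM was 2967 to 6525 in hypothyroid and 44.0 to 425 in hyperthyroid wild type. In *Thrb*-KO it was 3239 to 4859 and 91.0 to 174. *Trhr* ran in the same order of group means as *Pcsk1*, at 64.1, 24.8, 5.24 and 2.88 CPM, with a hypothyroid genotype difference of -1.35 and a difference of responses of -2.04. *Tshb* did not, at 4565, 3856, 136 and 203 CPM in that order, with -0.18 (adjusted p 0.895, limma) and -0.13 (adjusted p 0.995) for the same contrasts.

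Of the somatotroph markers *Gh* (growth hormone) and *Ghrhr* (its releasing hormone receptor), *Gh* was called, rising by 1.03 with T3 in wild type, and the sum ran from 48444 to 66337 CPM without and from 87484 to 159203 CPM with T3. In *Thrb*-KO that sum ran from 57874 to 73859 and from 83010 to 115091 CPM, with neither marker called. Of the lactotroph markers *Prl* (prolactin) and *Drd2*, *Prl* rose by 1.70 in wild type and 1.63 in *Thrb*-KO. The lactotroph sum ran from 5951 to 9436 and from 14667 to 53271 CPM in wild type, and from 4818 to 6012 and from 12148 to 20527 CPM in *Thrb*-KO. Between the hypothyroid genotypes, where *Pcsk1*, *Pcsk2* and *Neurod1* differed, 1 macrophage marker was called lower in *Thrb*-KO with limma. Of 3 tested of 4, this was *Csf1r* (-0.77, adjusted p 0.000759, limma), while *Cd68* (-0.46, adjusted p 0.0265) and *Ptprc* (-0.50, adjusted p 0.0788) were not. With edgeR and with DESeq2 all 3 were called. The sum of the 4 was 52.2 to 57.5 CPM in wild type and 30.3 to 36.1 CPM in *Thrb*-KO. Of the gonadotroph, stem and folliculostellate, pituicyte, erythroid and endothelial lists, no marker was called in either T3 response with limma. Of 5 posterior lobe pituicyte markers, 2 were called in wild type with edgeR and with DESeq2 (list median 0.39, limma). Between genotypes under T3, *Trhr* and the gonadotroph marker *Nr5a1* were called higher and the stem cell marker *Aldh1a2* lower in *Thrb*-KO (limma). No marker of these lists was at 0 in all libraries. The part of these cells in the results on the 8 genes was not tested.

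The *Pcsk1* promoter is shown because this gene moved most (GRCm38.p6, chr13:75089607-75089856, plus strand), with the match to the cyclic AMP response element in capitals:
Pcsk1 promoter: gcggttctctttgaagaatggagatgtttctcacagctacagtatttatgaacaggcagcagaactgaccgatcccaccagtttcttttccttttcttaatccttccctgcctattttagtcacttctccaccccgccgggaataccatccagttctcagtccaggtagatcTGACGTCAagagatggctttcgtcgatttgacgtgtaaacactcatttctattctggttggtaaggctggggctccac
The TGACGTCA, a motif added to the search after the sequences were seen, begins 78 bases before the start. The window holds neither AGGTCA nor CANNTG nor TCACACC.

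*Pcsk2*, the convertase of melanotrophs and many neuroendocrine cells, was lower after T3 in wild type without reaching the fold limit. It was 340, 345, 432 and 501 CPM in hypothyroid and 318, 275, 276 and 241 CPM in hyperthyroid wild type. It was 242, 212, 216, 253 and 344 CPM in hypothyroid and 199.6, 184, 276, 221 and 181 CPM in hyperthyroid *Thrb*-KO. The wild-type groups did not overlap, while the *Thrb*-KO groups did.

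The wild-type change of *Pcsk2* was -0.53 (SE 0.16), 1.44-fold, with adjusted p 0.028 (limma), and it depended on the library set. It was -0.21 (adjusted p 0.0655) in replicates 1 and 2 and -0.85 (adjusted p 0.0182, past both limits) in replicates 3 and 4, and without replicate 4 of hypothyroid wild type the adjusted p was 0.109. The *Thrb*-KO change was -0.25 (interval -0.56 to 0.06), and the difference of the responses, -0.28 (interval -0.74 to 0.18), had adjusted p 0.708. In hypothyroid animals *Pcsk2* was 1.60-fold lower in *Thrb*-KO than in wild type (log2 -0.68, SE 0.16, adjusted p 0.0106), although 1 *Thrb*-KO library at 344 CPM lay within the wild-type range. That call rested on replicate 4 of hypothyroid wild type, without which the difference was -0.57 with adjusted p 0.0543. Under T3 the genotype difference was -0.40 (adjusted p 0.116), with -0.62 (adjusted p 8.4e-05) in replicates 1 and 2 and -0.21 in replicates 3 to 5.

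**Figure D2:**
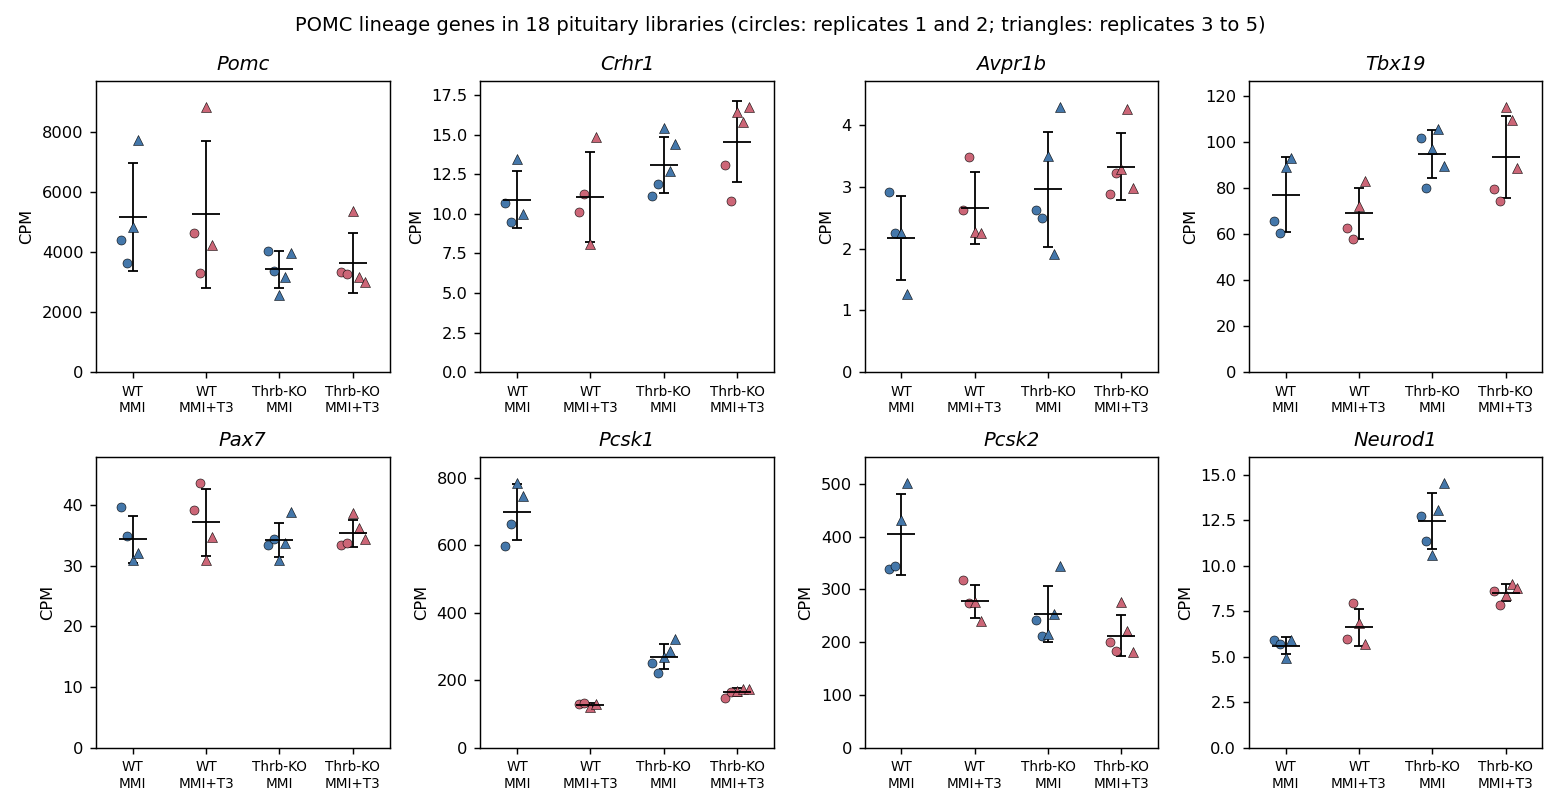
CPM of each of the 8 genes in the 18 libraries by group, with the group mean and SD in black (n = 4, 4, 5 and 5). Circles are replicates 1 and 2, triangles replicates 3 to 5, and each panel has its own axis starting at 0. *Pcsk1* separates all 4 groups, *Neurod1* is highest in hypothyroid *Thrb*-KO (10.6 to 14.5 CPM), and *Pax7* stays between 30.9 and 43.6 CPM.

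The receptors through which the hypothalamus acts on corticotrophs were low and were not called in any comparison. *Crhr1*, the corticotropin-releasing hormone receptor, was 10.7, 9.47, 13.5 and 10.0 CPM in hypothyroid and 10.1, 11.2, 8.07 and 14.8 CPM in hyperthyroid wild type. In *Thrb*-KO it ranged from 11.1 to 15.4 CPM (median 12.7) without T3 and from 10.8 to 16.7 CPM (median 15.8) with T3. Groups overlapped, and the T3 difference in wild type was 0.00 (interval -0.35 to 0.35, adjusted p 0.998, limma).

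Means of *Crhr1* were higher in *Thrb*-KO, by 0.25 (interval -0.08 to 0.58) in hypothyroid and 0.38 (interval 0.05 to 0.71, adjusted p 0.136) in hyperthyroid animals, the latter 0.14 in replicates 1 and 2 and 0.53 in replicates 3 to 5. *Avpr1b*, the vasopressin receptor of corticotrophs, was counted at 35 to 193 reads per library. Its group means ran from 2.17 ± 0.68 CPM in hypothyroid wild type through 2.66 ± 0.58 and 2.96 ± 0.93 to 3.33 ± 0.55 CPM (SD) in hyperthyroid *Thrb*-KO, with overlap between neighbours. The wild-type T3 difference of *Avpr1b* was 0.22 (interval -0.16 to 0.60), and its genotype difference in hypothyroid animals was 0.32 (interval -0.04 to 0.68). The latter was -0.0015 in replicates 1 and 2 and 0.60 (adjusted p 0.141) in replicates 3 to 5.

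Of the lineage transcription factors, *Neurod1* differed between genotypes while *Tbx19* and *Pax7* were not called in any comparison. *Tbx19*, required for *Pomc* transcription, was 65.7, 60.4, 89.1 and 93.0 CPM in hypothyroid and 62.8, 57.8, 72.0 and 83.1 CPM in hyperthyroid wild type. It was 102, 79.9, 96.9, 106 and 89.4 CPM in hypothyroid and 79.7, 74.4, 115, 109 and 88.7 CPM in hyperthyroid *Thrb*-KO. All groups overlapped, and in wild type the lower values within each group were those of replicates 1 and 2.

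Log2 T3 differences of *Tbx19* were -0.15 (interval -0.49 to 0.19) in wild type and -0.03 (interval -0.34 to 0.27) in *Thrb*-KO. It was higher by mean in *Thrb*-KO, by 0.31 (interval -0.01 to 0.64) without and 0.43 (interval 0.10 to 0.75, adjusted p 0.0835, limma) with T3. The first was 0.51 (adjusted p 0.00315, under the fold limit) in replicates 1 and 2 and 0.09 in replicates 3 to 5. The second was 0.35 (adjusted p 0.0231) and 0.42 (adjusted p 0.0401). With the replicate number as a block they were 0.33 (adjusted p 0.0121, limma) and 0.44 (adjusted p 0.001). With the library set as a block they were 0.28 (adjusted p 0.0582) and 0.39 (adjusted p 0.00659). All of these lay under the fold limit. *Pax7* was the steadiest member, with its highest library 1.41 times its lowest. Its T3 differences were 0.10 (interval -0.12 to 0.32) and 0.05 (interval -0.15 to 0.24), and its hypothyroid genotype difference was -0.00 (interval -0.21 to 0.21). Under T3 its genotype difference was -0.06, with opposite signs in the library sets, -0.29 (adjusted p 0.0251) in replicates 1 and 2 and 0.15 in replicates 3 to 5.

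*Neurod1* was 5.91, 5.71, 4.94 and 5.91 CPM in hypothyroid and 5.96, 7.97, 6.85 and 5.71 CPM in hyperthyroid wild type. In hypothyroid *Thrb*-KO it was 12.7, 11.4, 10.6, 13.05 and 14.5 CPM, and in hyperthyroid *Thrb*-KO 8.64, 7.85, 8.41, 9.02 and 8.76 CPM. The hypothyroid *Thrb*-KO libraries lay above all others, the wild-type groups overlapped, and hyperthyroid *Thrb*-KO overlapped hyperthyroid wild type by 1 library. Reads behind these values were 163 to 587 per library.

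In hypothyroid animals *Neurod1* was 2.03-fold higher in *Thrb*-KO (log2 1.02, SE 0.10, adjusted p 2.29e-06, limma), with no overlap, as for 7.6% of genes tested. With T3 it differed by -0.49 (SE 0.09) in *Thrb*-KO, with adjusted p 0.00599 and no overlap but 1.41-fold, under the fold limit, and the wild-type difference was 0.20 (interval -0.02 to 0.42). The responses differed by 0.69 (interval 0.39 to 0.99, adjusted p 0.00568). Within replicates 1 and 2 this difference was 0.71 (adjusted p 0.0176) and within replicates 3 to 5 it was 0.67 (adjusted p 0.0969). Under T3 *Neurod1* was 0.33 higher in *Thrb*-KO (adjusted p 0.0364), under the fold limit and with overlap.

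The promoter of *Neurod1* (GRCm38.p6, chr2:79456637-79456886, minus strand) is shown as that of the other member whose T3 response differed between genotypes:
Neurod1 promoter: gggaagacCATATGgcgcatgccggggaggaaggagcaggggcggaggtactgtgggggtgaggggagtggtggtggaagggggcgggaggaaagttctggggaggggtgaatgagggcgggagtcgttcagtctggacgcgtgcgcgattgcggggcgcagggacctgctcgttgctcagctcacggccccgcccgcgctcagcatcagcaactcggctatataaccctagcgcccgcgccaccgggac
It holds 1 E-box, 242 bases before the start, and is 67.6% G and C against 46.8% for *Pcsk1*. Of the other promoters in the table, *Tbx19* and *Pcsk2* hold 1 E-box each, at 66 and 135 bases before the start, and *Crhr1* and *Pax7* hold none of the 4 motifs.

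Lists of other genes around POMC were counted beside the 8 members. Over 5 lists with 45 tested genes (of 61), T3 raised 2 and lowered 7 in wild type, 9 of 45 beside 9.46% of all genes tested (7 lower beside 5.59%). The lists were not tested as sets. In *Thrb*-KO none was called with limma, edgeR or DESeq2, beside 1.01% of all genes with limma. An unadjusted p under 0.05 (limma) was reached by 7 of the 45, again with no share of all genes counted. The median T3 difference over all genes tested was -0.04 in wild type and -0.01 in *Thrb*-KO.

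In the list of POMC processing and peptide maturation, with 12 genes, 1 rose and 2 fell in wild type (list median -0.16). The list also holds other members of the convertase family, *Furin*, *Pcsk4*, *Pcsk5*, *Pcsk6* and *Pcsk7*, not only enzymes known to act on POMC. *Pam*, which amidates peptides after cleavage, fell from 1125 to 398 CPM (log2 -1.49, SE 0.09, adjusted p 8.4e-10, limma), against 702 to 482 CPM in *Thrb*-KO (-0.54, under the fold limit), and its responses differed by -0.95 (adjusted p 5.14e-05). The convertase *Pcsk5* fell by -0.83 (adjusted p 0.00052) and the convertase *Pcsk6* rose by 1.12 (adjusted p 2.33e-06), and the responses of *Pcsk6* differed by 0.82 (adjusted p 0.00532). *Cpe*, the carboxypeptidase that trims the cut peptides, changed by -0.27 (adjusted p 0.0495), *Scg5*, the helper of PC2, by -0.34 (adjusted p 0.00332), both under the fold limit, and *Pcsk1n*, the inhibitor of PC1/3, by -0.17 (adjusted p 0.405).

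Of the 11 transcription factors and cofactors of *Pomc* reported here, none was called in wild type with limma, edgeR or DESeq2 (median -0.05). An unadjusted p under 0.05 (limma) was reached by 2, with no share of all genes counted. *Pitx1*, which acts with *Tbx19*, differed by -0.01 (interval -0.25 to 0.23), and *Nr4a1*, an immediate early gene of the CRH response, by -0.94 with a wide error (SE 0.51, adjusted p 0.241). In the list named for CRH and vasopressin signalling, with 11 tested genes (of 19), 3 fell (list median -0.08). That count and median also cover *Drd2*, *Lifr*, *Il6st*, *Socs3* and *Usp8*, which lie outside this signalling. Those that fell were *Gnaq*, *Prkacb* and *Prkar1a*, which encode a G protein subunit and subunits of protein kinase A. *Gnaq* fell by -0.74 (adjusted p 0.000824) and *Prkar1a* by -0.71 (adjusted p 5.65e-05). *Prkacb* fell by -0.62 (adjusted p 0.00279, limma) and kept its call in only 9 of 15 alternatives. Its change drew under the fold limit without replicate 3 of hyperthyroid wild type (-0.43) and with edgeR (-0.54). *Drd2*, the dopamine receptor that restrains melanotrophs and lactotrophs, differed by 0.36 (adjusted p 0.0575).

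Of 9 tested genes of glucocorticoid feedback (of 10), 1 rose and 1 fell in wild type (list median 0.01). *Fkbp5*, a target of the glucocorticoid receptor, fell by -0.72 (adjusted p 0.00263, limma) and *Sgk1*, a kinase also induced by glucocorticoids, rose by 0.72 (adjusted p 0.00409). The response of *Sgk1* in wild type exceeded that in *Thrb*-KO by 0.73 with adjusted p 0.0679, and with the replicate number as a block 0.0297. Over 14 alternatives this difference ran from 0.59 to 0.93, and in only 7 did it stay uncalled and within 1 replicate SD. *Nr3c1*, the glucocorticoid receptor, differed by 0.14 (interval -0.22 to 0.50). Of 9 receptors and accessory proteins for POMC peptides, 2 passed the filter, and *Mrap2*, an accessory protein of melanocortin receptors, fell by -1.05 (adjusted p 0.000213), with a difference of responses of -0.99 (adjusted p 0.0157).

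Several of these calls rested on the library set. In replicates 1 and 2 alone the wild-type changes of *Pcsk5* (-0.52), *Gnaq* (-0.51), *Prkar1a* (-0.55), *Prkacb* (-0.42) and *Fkbp5* (-0.42) lay under the fold limit, while in replicates 3 and 4 they were -1.14, -0.98, -0.88, -0.83 and -1.03. *Sgk1* had an adjusted p of 0.0571 (limma) in replicates 3 and 4. Changes of *Pam*, *Pcsk6* and *Mrap2* passed both limits in both sets. Between genotypes 2 of the 45 were called in hypothyroid animals, beside 3.02% of all genes, and 5 under T3, beside 4.86%. *Pam* (-0.67) and *Pcsk5* (-0.66) were lower in hypothyroid *Thrb*-KO. Over 15 alternatives *Pam* ran from -0.82 to -0.53 and *Pcsk5* from -0.94 to -0.40, each keeping its call in 14. With 1 library left out *Pcsk5* kept its call in 16 of 18 fits. Under T3 *Fkbp5* (0.82), *Mrap2* (0.82) and *Anxa1* (0.72, adjusted p 0.00666, limma) were higher and *Sgk1* (-0.87) and *Nr4a3* (-1.27, adjusted p 0.0483) lower in *Thrb*-KO. *Anxa1*, a glucocorticoid-induced annexin, and *Nr4a3*, of the family of *Nr4a1*, were named after their values were seen.

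**Figure D3:**
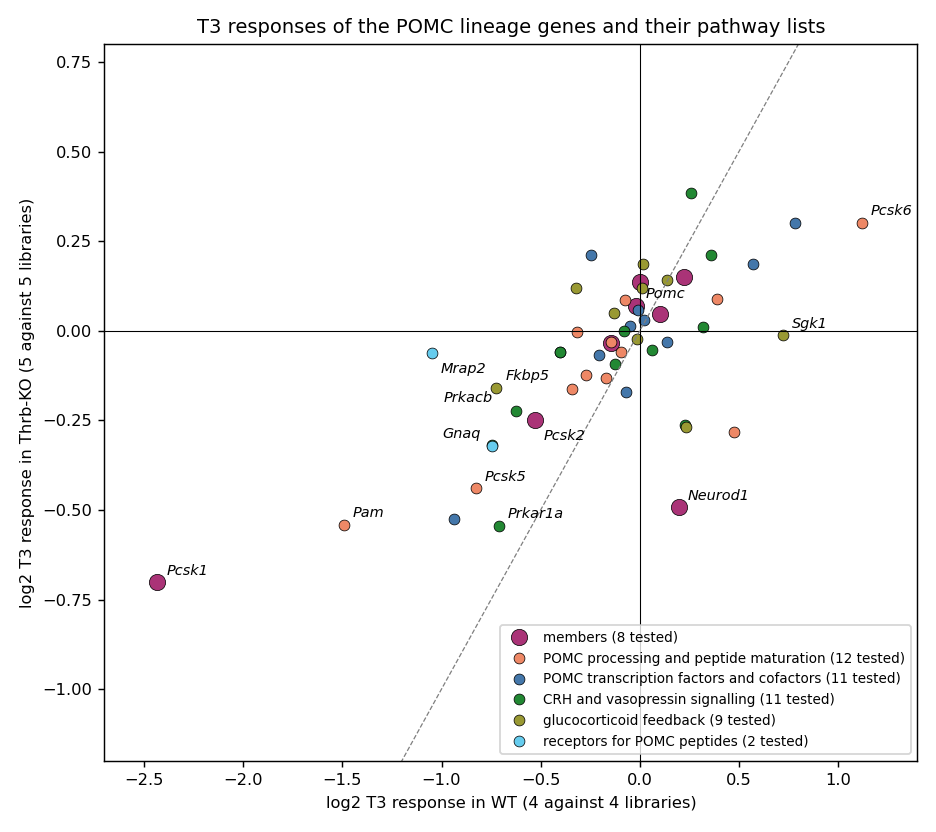
Log2 T3 response in *Thrb*-KO (vertical) against that in wild type (horizontal) for the 8 POMC lineage genes (large points) and the tested genes of 5 pathway lists, with names for called genes, *Pomc*, *Pcsk2* and *Neurod1*. The dashed line marks equal responses, and the axes have different scales. *Pcsk1* and *Pam* lie farthest left, at -2.43 and -1.49 in wild type.

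Likeness of pattern was described over the 18 libraries after the means of groups and library sets were subtracted, among 14472 genes. These points share library, depth and pooled tissue. The genes most like *Pomc* were *Rabgef1* (Pearson r 0.87), *Thap4* (0.87), *Gap43* (0.86), *Snrpa* (0.85) and *Crb3* (0.85). Those most like *Crhr1* were *Trpm4* (0.96), *Plekhg3* (0.95), *Kif1c* (0.95), *Tln1* (0.94) and *Ift140* (0.94). Those most like *Pax7* were *Cd55* (0.90), *Zfp703* (0.88), *Hspa12a* (0.87), *Pcbp2* (0.87) and *Rbpms* (0.87). None of the 8 members appeared in these lists of 5.

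Among the members, *Pomc* followed *Pcsk2* most closely (r 0.51, and 0.78 and 0.81 within the library sets). *Pomc* ran against *Crhr1* (r -0.65, with -0.20 and -0.73 within the sets). Among 14471 other genes ordered from most to least like *Pomc*, *Pcsk2* had rank 1689 and *Crhr1* rank 13616. Many genes outside the members were thus more like *Pomc* than *Pcsk2* was, and many ran more strongly against *Pomc* than *Crhr1* did. Values within a set rest on few libraries. *Pomc* and *Pax7* gave r -0.18, with opposite signs within the sets (-0.25 and 0.32). *Pomc* and *Tbx19* gave r 0.35, with 0.74 in replicates 1 and 2 and 0.01 in replicates 3 to 5.

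None of the 8 gene bodies had a TRβ peak of untreated pituitary within 20 kb, where 41.2% of 12898 tested genes with a gene body on mm9 had one. Within 50 kb 2 of 8 had one (*Tbx19* and *Pcsk1*) beside 55.8% of genes, and within 100 kb 3 of 8, *Pomc* added, beside 70.8%. In cerebral cortex 1 of 8 had a peak within 20 kb, *Pcsk2*, beside 34.9% of genes, with 4 of 8 within 50 kb beside 49.1% and 5 of 8 within 100 kb beside 62.9%. No member had a T3-regulated ATAC peak within 20 kb, beside 7.75% of genes, nor within 50 kb (11.8%), and 1 had one within 100 kb (18.2%), in nuclei that hold few ACTH-positive cells. The TRβ peaks came from whole tissue, so a site bound only in POMC cells may be missed. The study's separate peak calls in hypothyroid and hyperthyroid pituitary were not read here. Peaks were called on pooled libraries, so none of these counts has a replicate error.

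The peak nearest to *Pcsk1* (gene body chr13:75227274-75269946, mm9) lay in intergenic sequence 29405 bp past its end, with 12 reads against 1 control read, and 6.60% of the 8051 pituitary peaks had fewer reads. For *Tbx19* (chr1:167067986-167090904, minus strand) a peak of 31 against 3 reads lay 33397 bp upstream, over an exon of the neighbouring gene *Sft2d2*. A second *Tbx19* peak, of 30 against 2 reads, lay 90936 bp downstream, and *Tbx19* was the nearest coding gene. This second peak overlapped a T3-regulated ATAC peak (chr1:166976796-166977211, adjusted p 0.0362 as deposited, without a direction), and 78.9% of pituitary peaks had fewer reads.

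*Pomc* (chr12:3954951-3960618) had peaks of 12 against 1 and 19 against 4 reads at 64901 and 97101 bp upstream, both in introns of *Dnmt3a*. The nearest pituitary peaks of the other members lay farther off, at 120177 bp for *Pax7*, 171130 bp for *Pcsk2*, 177866 bp for *Avpr1b*, 250064 bp for *Crhr1* and 382828 bp for *Neurod1*. The cortex peak of *Pcsk2* (gene body chr2:143371892-143642021) covered its start with 10 reads against 0, a low count at which 4.73% of cortex peaks had fewer reads. It also overlaps an exon of *C630020P19Rik*.

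**Figure D4:**
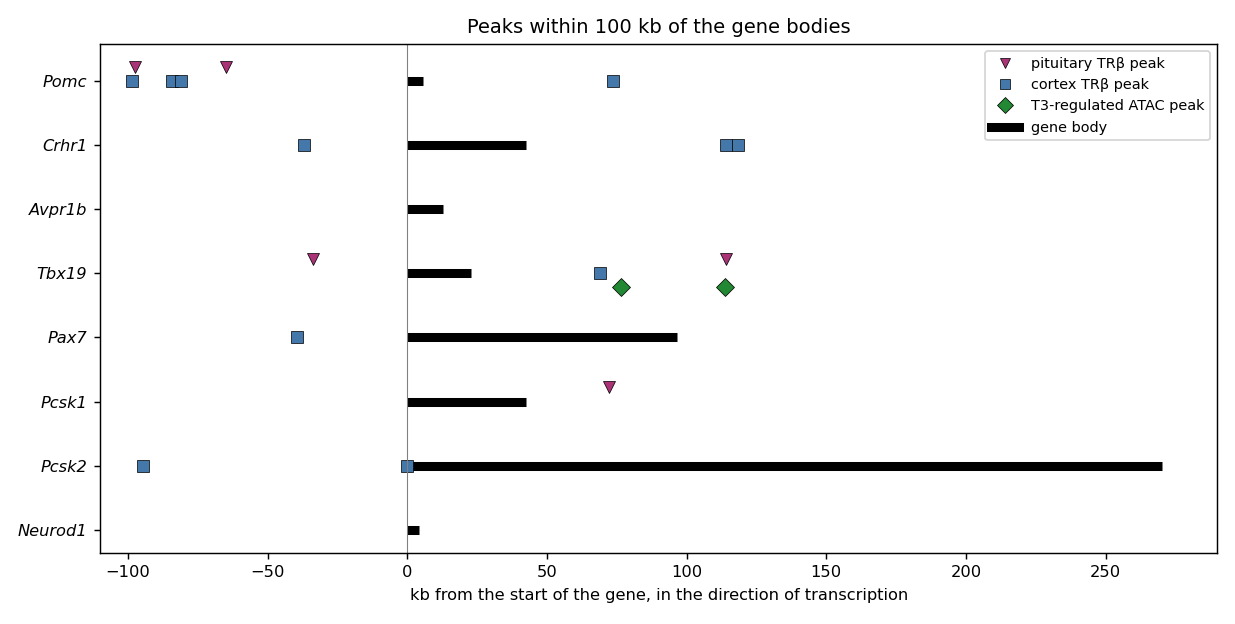
Position of every peak of the 3 lists within 100 kb of the 8 gene bodies, in kb from the start of each gene along its direction of transcription. Black bars are gene bodies and each symbol is the centre of 1 peak. *Avpr1b* and *Neurod1* have no peak in this range, and the *Pcsk2* cortex peak sits on the start.

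The following peaks are shown on the plus strand of mm9, the pituitary peak of *Tbx19* that overlaps the ATAC peak (chr1:166976751-166977050), the pituitary peak nearest *Pcsk1* (chr13:75299351-75299650) and the part of the *Pcsk2* cortex peak before the gene (chr2:143371601-143371891). Capitals would mark an AGGTCA on either strand, and none of these stretches holds one:
Tbx19 distal peak: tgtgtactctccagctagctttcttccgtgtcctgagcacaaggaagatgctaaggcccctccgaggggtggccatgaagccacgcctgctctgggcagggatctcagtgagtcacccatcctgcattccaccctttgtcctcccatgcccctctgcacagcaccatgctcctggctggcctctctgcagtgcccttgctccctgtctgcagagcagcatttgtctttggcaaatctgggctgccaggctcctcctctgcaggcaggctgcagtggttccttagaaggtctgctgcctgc
Pcsk1 distal peak: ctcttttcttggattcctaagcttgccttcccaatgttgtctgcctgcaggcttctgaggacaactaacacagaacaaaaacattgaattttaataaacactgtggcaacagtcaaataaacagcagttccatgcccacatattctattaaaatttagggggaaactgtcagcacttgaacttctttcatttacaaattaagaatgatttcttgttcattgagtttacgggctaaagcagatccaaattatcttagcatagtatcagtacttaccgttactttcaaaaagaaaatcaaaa
Pcsk2 cortex peak: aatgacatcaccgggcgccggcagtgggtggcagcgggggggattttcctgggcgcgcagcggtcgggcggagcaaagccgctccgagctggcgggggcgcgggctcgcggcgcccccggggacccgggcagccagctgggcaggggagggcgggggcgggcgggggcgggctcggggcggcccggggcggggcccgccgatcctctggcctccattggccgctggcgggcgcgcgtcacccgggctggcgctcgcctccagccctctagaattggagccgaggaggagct
An exact AGGTCA was present in 32.0% of pituitary and 18.4% of cortex peaks of 300 bp. A direct repeat of AGGTCA with 4 bases between, allowing 2 mismatches over 12 bases, was present in 20.3% and 6.73% of them. Over peaks of any length the shares were 20.9% in pituitary, 9.30% in cortex and 30.9% in T3-regulated ATAC. None of the 18 peaks within 100 kb of a member, of all 3 lists and of mixed length, held one, and their best match had 3 mismatches or more.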

How the data were processed

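The authors mapped single-end reads of poly(A) RNA with BBMap to RefSeq mm9 transcripts, without strand, and deposited CPM (counts scaled to a common total) per transcript for 18 libraries. TruSeq and ThruPLEX kits were both used, and the labels do not assign them. Whole reads were recovered from the CPM steps (100% of values within 0.02 read). The transcript with the highest mean CPM was kept per gene, and genes above 1 CPM in all libraries were tested with limma 3.58.1 (R 4.3.3, trend) on log2(CPM + 1), which understates changes of low genes. Each library is a pool of 3 glands, and p-values measure the spread between pools. SICER peaks, deposited with read counts, a fold ratio over control and a false discovery rate (treated as a p-value), came from merged libraries, and the ATAC list holds the authors' adjusted p-value only. Genes were placed on mm9 with GENCODE, and promoters are RefSeq (GRCm38.p6), found for 7 of 8 members and not for *Avpr1b*. Floors and counts cover counting error only.

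Members and lists were chosen with earlier results of these data known. A list gene is not reported here and was left out of its list's counts. Named beside the members were *Thrb*, genes of the lists called in a T3 response or its difference (up to 4 per list), 8 list genes fixed by name, and the 5 genes most like *Pomc*, *Crhr1* and *Pax7*. Same-numbered libraries deviated together from their group means (r 0.26 to 0.82 in wild type and 0.39 to 0.67 in *Thrb*-KO between treatments), but differently numbered libraries of 1 set did so as much (up to 0.76 and 0.73), so numbers and sets are not separated. The replicate number was also fitted as a block. Alternatives were edgeR 4.0.16 and DESeq2 1.42.0 on the recovered reads, other scalings, filters, library sets, and each library left out. AGGTCA and TGACGTCA in promoters were added after the sequences were seen.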

Additional observations from a re-analysis of the deposited data

Results flagged for a closer look

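In hyperthyroid *Thrb*-KO, *Pomc* in replicate 3 was 5391 CPM while the other 4 libraries were 3001 to 3333 CPM, a gap of 0.861 of the group's range. It was the single library set apart in this way among 32 groups of member values, where chance alone sets apart about 1 in 20 groups.

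The T3 responses of *Pcsk1* and *Neurod1* differed between genotypes by the test of the difference (limma). For *Pcsk1* the wild-type response minus the *Thrb*-KO response was -1.73 on the log2 scale (adjusted p 4.99e-07), with all hyperthyroid libraries below all hypothyroid libraries in both genotypes. For *Neurod1* it was 0.69 (adjusted p 0.00568), with all 5 hyperthyroid *Thrb*-KO libraries below the hypothyroid ones and overlapping libraries in wild type.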

How the results depend on the processing

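The count of members called in wild-type T3 response was 1 and rose to 2 (*Pcsk2* added) in replicates 3 to 5 alone, with no fold limit, and without replicate 1 or 2 of hypothyroid or replicate 1 of hyperthyroid wild type (range 1 to 2 over the libraries left out). With no fold limit it was also 2 in *Thrb*-KO (*Neurod1* added) and 2 between genotypes under T3 (*Pcsk1* and *Neurod1*, from 0), where replicates 1 and 2 alone gave 1 (*Pcsk2*, -0.62). Between hypothyroid genotypes it was 3, and 2 to 3 over the libraries left out (*Pcsk2* lost without replicate 4 of hypothyroid wild type). The count for the difference of responses fell from 2 to 1 in replicates 3 to 5 alone. The *Pcsk1* and hypothyroid *Neurod1* calls held in every fit, and no change called with all libraries changed sign. Uncalled values did change sign between replicates 1 and 2 and replicates 3 to 5, as for *Pax7* above, the *Tbx19* difference of responses (0.16 and -0.33) and that of *Nr4a1* (0.94 and -1.36), whose *Thrb*-KO response was -1.71 and 0.26. Of 1312 refitted values of members, 1293 kept their call or moved by under 1 replicate SD. Pairing libraries by replicate number as a block left the members' counts at 1, 1, 2, 3 and 0, and among the named genes it changed the call of *Sgk1* given above.

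Members with a pituitary TRβ peak went from 0 to 2 within 50 kb and 3 within 100 kb, those with a cortex peak from 1 to 4 and 5, and to 0 with only peaks above the median reads, and those with an ATAC peak from 0 to 1 within 100 kb. The gene body already joins all transcripts, so that alternative was not run. Over all genes, T3 calls in wild type were 1244 (40.9% higher) and 1393 (51.5% higher) with edgeR, and genotype calls under T3 were 639 (52.3% higher) and 793 (36.4% higher). With no fold limit 2536, 235, 718, 901 and 1586 genes were called, against 1244, 133, 560, 397 and 639. Replicates 3 to 5 alone gave 628 hypothyroid and 1114 hyperthyroid genotype calls. With no means subtracted, none of the 5 genes most like *Pomc*, *Crhr1* or *Pax7* was kept. With only group means subtracted 2, 0 and 1 of the 5 were kept, and with Spearman in place of Pearson 2 for each. *Avpr1b* rests on 35 to 193 reads per library.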
